A study of Mus musculus with 6 samples.

Results

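Ribosomal RNA transcripts annotated on mouse chromosome 17 and the microRNA gene Mir6236 on chromosome 9 named 6 of the 104 intervals of accessible chromatin in mouse epididymal white adipose tissue. The intervals were taken by name: every interval called CT010467.1, CT010467.2 or Mir6236 in the deposited table, 5 for ribosomal RNA and 1 for Mir6236. Accessibility was measured by ATAC-seq, in which a transposase cuts open DNA and the cut fragments are sequenced. Of 6 libraries, 3 came from flox controls, labelled flox, whose Armc5 alleles carry recombination sites, and 3 from mice with an adipocyte-specific Armc5 KO, the deletion of a substrate adaptor of a ubiquitin ligase. The title of the series concerns SREBF1 and its escort protein SCAP in adipocytes. Age, sex, strain and the promoter driving the deletion are not given in the sources used here. Nor do they say whether each library is a different animal. P-values therefore describe only the variation from library to library, which may be technical. The tissue also holds other cell types than adipocytes, and in whole tissue fewer cells of a type and less open chromatin per cell cannot be told apart.

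Ribosomal RNA forms the core of the ribosome and is transcribed by RNA polymerase I in the nucleolus from long arrays of nearly identical gene copies. Actively transcribed copies are known for open chromatin with few nucleosomes. Short fragments from such copies cannot be assigned to one of them by sequence, so values at an annotated copy can sum several. MicroRNAs are short RNAs cut from a hairpin, and the seed, near the 5′ end, pairs with target messenger RNAs.

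The mature microRNA of the chromosome 9 locus is shown because the position of the peak is given below relative to it. The sequence is from RefSeq (GRCm38.p6, the assembly called mm10; chr9:110281353-110281371, plus strand), and the capitals mark the seed, bases 2 to 8:
mmu-miR-6236: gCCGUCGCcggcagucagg
The mature form has 19 bases, of which 15 are G or C (78.9%). The median of the 1738 mature entries in the RefSeq table was 52.2%, and 19 entries had a higher share. The seed was shared with 0 other mature microRNAs of that table. For CT010467.1 and CT010467.2 no sequence is printed.

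The 5 ribosomal RNA intervals (mm10) lay in a row on chromosome 17 from 39843039 to 39848787. They covered 4682 of these 5749 bp (81.4%) and made up 16.2% of the bases in all 104 intervals. The upstream interval (39843039 to 39844849, 1811 bp) was annotated as intergenic, 2409 bp before the start of CT010467.1. The start-site interval (39844943 to 39846788, 1846 bp) was annotated to the promoter of a ribosomal RNA transcript. These were the widest intervals of the table, in which no other interval exceeded 1075 bp. The other 3 were named for CT010467.2 and lay 1027, 598 and 230 bp from its start: the distal interval (39847563 to 39848038, at the end of a pseudogene), the middle interval (39848145 to 39848313) and the proximal interval (39848408 to 39848787). The middle and proximal intervals were annotated to the end of the same ribosomal RNA transcript whose promoter annotated the start-site interval.

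RefSeq names this stretch differently from the deposited annotation. The distances in the table place the start of CT010467.1 within 2 bp of the first base of Rn18s-rs5 (39846354 to 39848202), a pseudogene related to small-subunit ribosomal RNA that also goes by Gm42418. The start-site interval held the first 435 bp of Rn18s-rs5, and the distal interval lay wholly inside it. Between them, 774 bp of Rn18s-rs5 held no interval. In all, 969 of its 1849 bp (52.4%) lay under intervals. The middle and proximal intervals lay inside the long noncoding RNA AY036118 (39848112 to 39898385). The nearest protein-coding gene was Esp38, 101.7 kb from the proximal interval.

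The Mir6236 interval was narrow, 106 bp from 110281250 to 110281355 on chromosome 9. RefSeq places Mir6236 from 110281287 to 110281409, so the interval held the first 69 bp of the gene and 37 bp before it. A second RefSeq gene, the long noncoding RNA Gm39429 (110266638 to 110282670), covered the whole interval. The nearest protein-coding gene was Cspg5, which encodes a chondroitin sulfate proteoglycan, 18.7 kb away. Scap itself, which encodes the SREBP escort protein, lay 51.9 kb from it. The nearest other interval on this chromosome was 75.0 Mb away, and for the ribosomal RNA intervals it was 26.2 Mb away.

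Among loci of the ribosomal RNA pathway listed here, no other was found in the table. Those without a RefSeq position could be sought by name only. Of 19 ribosomal RNA and ribosomal RNA-like small RNA loci listed for this purpose, 0 named an interval, and 2 of the 11 with a RefSeq locus (Gm42418 and AY036118) were overlapped by one, both by the ribosomal RNA intervals themselves. Of 220 5S ribosomal RNA loci, 0 named or overlapped an interval, with overlap checked only for the 69 with a RefSeq locus. Nor did any of 15 genes of the RNA polymerase I machinery and nucleolus (0 of 15), among them Polr1a, which encodes its largest subunit, and Ubtf, an architectural factor of active ribosomal genes. Taf1a, a subunit of the polymerase I promoter factor, was 89.3 kb from an interval, and the other 14 were farther. None of the 104 intervals overlapped a gene that RefSeq classes as rRNA, and 1, that of Mir6236, overlapped one classed as miRNA. The deposited annotation differed, with 3 intervals annotated to rRNA and 3 to miRNA. The tissue label could not be checked against its markers, since 0 of 8 adipocyte markers such as Adipoq and 0 of 12 markers of other cells named an interval.

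Fold enrichment over local background and its −log10 p are the authors' own values, set within each library and not normalized between libraries. The deposited table holds no read totals. Each fold and p-value was solved for the pileup, a whole number of fragments over the summit, and for the local background. The local background is the number that would be there by the level of a window around the summit. On the reading given below, this window includes the peaks, so the background holds their fragments as well. All 35 peaks in the 6 intervals matched one whole pileup. Across the 55 intervals with a peak in every library the median pileup was 85, 90 and 58 fragments for flox controls 1, 2 and 3, against 56, 74 and 56 for Armc5 KO 1, 2 and 3. True depth is unknown. One library was unlike the rest, flox control 3, whose pileups over those intervals differed from the others by a chi-square per degree of freedom of 30.0 to 54.7, against 0.881 to 3.91 among the others, and whose narrowest peak had 112 bp where the others had 86 to 88 bp.

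The backgrounds held a second count. Those of a library were multiples of one step, 0.00868 to 0.00889 in 5 libraries and 0.0109 in flox control 3. Of 313 backgrounds below 300 steps, 304 (97.1%) lay within 0.05 step of a whole number. A step was taken as 1 fragment in the window around the summit from which the background was computed, and the number of steps as the window count. None of the 519 summits of the table held more fragments than this count, and 19 held exactly as many. Where the background exceeded 300 steps, the count is approximate.

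Peaks were called over the ribosomal RNA transcripts in every library. The upstream, start-site, distal and proximal intervals were called in all 6, and the middle interval in all but flox control 3. Flox controls 1, 2 and 3 had 6, 6 and 4 of the 6 intervals (5.33 ± 1.15), and Armc5 KO 1, 2 and 3 had 6, 6 and 5 (5.67 ± 0.577, SD, n = 3 each; exact permutation test, two-sided, p = 1.0; 3 against 3 cannot go below 0.1). Without flox control 3 this difference of 0.333 intervals turned to -0.333. The number of peaks within the intervals was 6, 6 and 6 in flox controls against 6, 6 and 5 in Armc5 KO (exact permutation p = 1.0).

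Peak widths were close in all 6 libraries at the upstream and distal intervals, while flox control 3 stood apart at the start-site and proximal intervals. The upstream peak was 1750 to 1800 bp wide in the 6 libraries, and the distal peak 457 to 462 bp. The start-site peak was 1556 to 1829 bp wide in 5 libraries, while flox control 3 had 3 separate peaks there of 506, 218 and 247 bp. The middle peak was 135 to 167 bp wide in the 5 libraries that had it. At the proximal interval the peak was 356 to 380 bp wide in 5 libraries and 294 bp in flox control 3. Together the called peaks covered 4272 to 4605 bp in 5 libraries and 3474 bp in flox control 3.

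**Figure D1:**
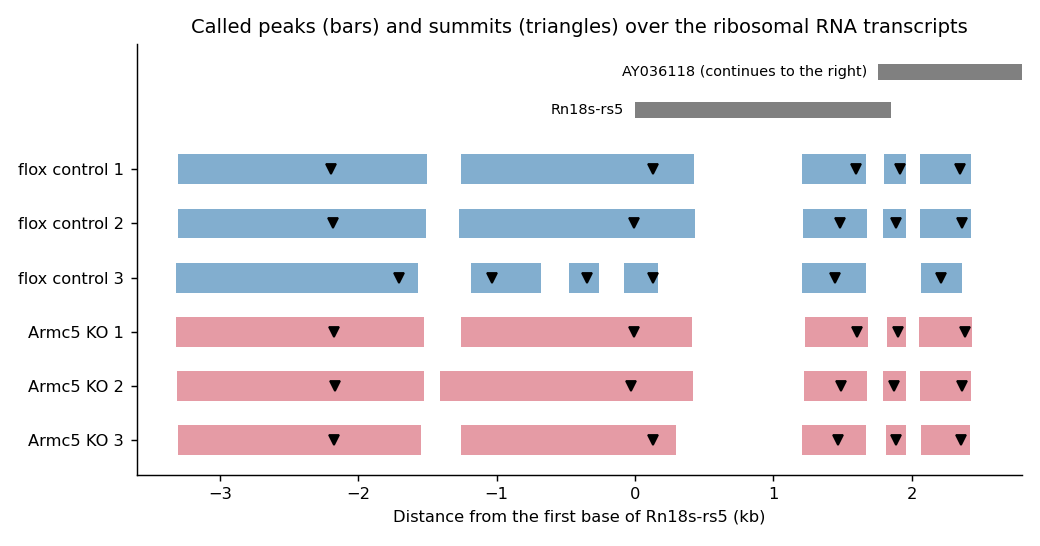
Called peaks over the ribosomal RNA transcripts by library, on an axis in kb from the first base of Rn18s-rs5. Bars are peaks (blue, flox control; red, Armc5 KO), triangles their summits and grey bars the RefSeq genes; flox control 3 has 3 peaks at the start-site interval in place of 1, and no peak at the middle interval.

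Summits in the upstream interval lay between 39844161 and 39844184 in 5 libraries, 2170 to 2193 bp before the first base of Rn18s-rs5. Flox control 3 had its summit at 39844650. In the start-site interval the summits of the highest peaks took one of 2 places in each group. They lay 7 bp before the Rn18s-rs5 start in flox control 2 and Armc5 KO 1, and 26 bp before it in Armc5 KO 2. In flox controls 1 and 3 and Armc5 KO 3 they lay 129 to 130 bp after it. The other 2 peaks of flox control 3 there had summits 1030 and 349 bp before that start. Summits of the distal interval lay 1447 to 1607 bp, and those of the middle interval 1869 to 1915 bp, after that start, with both groups mixed. At the proximal interval they lay 2352 to 2384 bp after it in 5 libraries and 2211 bp after it in flox control 3.

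The ribosomal RNA intervals had the highest mean local background of the table and the lowest mean fold enrichment. Mean background was 134.8 fragments at the upstream, start-site and distal intervals and 114.2 at the proximal interval, over 6 libraries. At the middle interval it was 133.4 over 5 libraries, without flox control 3. Next came the intervals at Gm10800, with 54.2 fragments. Mean fold enrichment was 2.27 to 3.05, and the next lowest intervals were those at Fau-ps2 (3.11, 1 library) and Sfi1 (3.63, 2 libraries). Within each single library the called ribosomal RNA intervals held the lowest folds, ranks 1 to 5 of 75 to 97 intervals in 5 libraries and 1 to 4 of 64 in flox control 3. By background they held ranks 1 to 5 from the highest in those 5 libraries, while in flox control 3 the proximal interval was 7th, with 97.1 fragments against 100.7 at the highest other interval. By pileup they were near the top, at rank 2 to 14 from the highest. These are descriptions of ranks, since fold is computed from pileup and background. The background includes fragments of the peaks, so a low fold here is not a measure against flanking DNA alone.

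**Figure D2:**
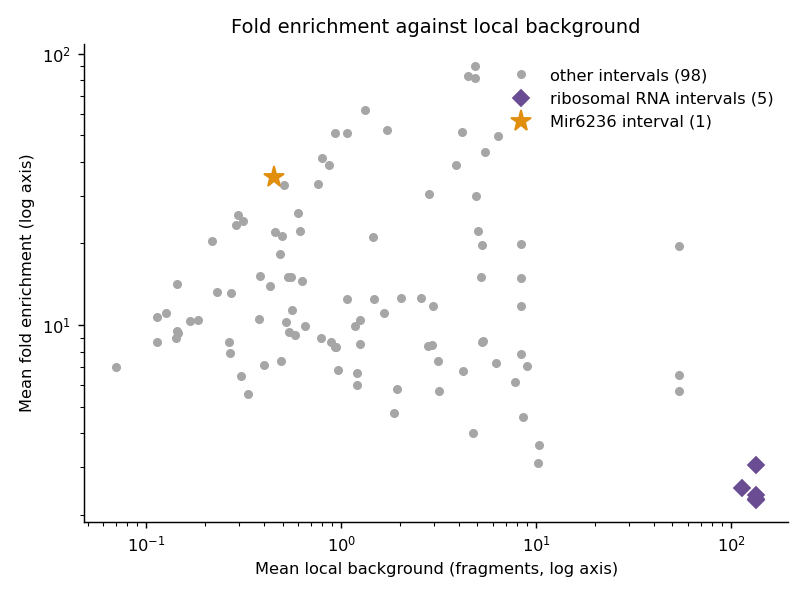
Mean fold enrichment against mean local background of the 104 intervals, both on log axes, each point the mean over the libraries with a peak. The 5 ribosomal RNA intervals sit alone at the lower right, at a background of 114.2 to 134.8 fragments, and Mir6236 at the upper left, at 0.453 fragments.

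Window counts gave the number of fragments around the ribosomal RNA summits, not how they were spread. In every library the upstream, start-site and distal intervals gave 1 and the same window count, which for flox controls 1, 2 and 3 came to 16264, 22172 and 10248 fragments, and for Armc5 KO 1, 2 and 3 to 13211, 16435 and 11755. It was 2.77 to 3.87 times the largest window count elsewhere in the table in 5 libraries and 1.11 times in flox control 3. The proximal interval had 83.6 to 87.2% of the upstream window count. Divided by the library's median pileup, the ribosomal RNA window count was 191.3, 246.4 and 176.7 in flox controls (204.8 ± 36.7) against 235.9, 222.1 and 209.9 in Armc5 KO (222.6 ± 13.0; SD, 3 libraries per group). These ranges overlapped (exact two-sided permutation p = 0.5, smallest possible 0.1).

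The share of the window that lay over the summit was small at ribosomal RNA and nearly complete at Mir6236. It was 1.82 to 3.96% over the highest peaks of the ribosomal RNA intervals, the highest value being that of the proximal interval in flox control 3. The step of that library was larger (0.0109 against 0.00868 to 0.00889). Its shares, also those of other intervals, are therefore higher at the same ratio of pileup to background. In flox control 1, for example, 436 of 16264 fragments (2.68%, Clopper-Pearson 95% interval 2.44 to 2.94%) lay over the upstream summit. At Mir6236 the summit held 52 of 53 fragments in flox control 1 (98.1%, 89.9 to 99.95%) and 63 of 65 in flox control 2 (96.9%, 89.3 to 99.6%). In Armc5 KO 1 it held 42 of 44 (95.5%, 84.5 to 99.4%) and in Armc5 KO 2 it held 45 of 46 (97.8%, 88.5 to 99.9%). Only 1 or 2 fragments of each window therefore lay elsewhere. The intervals cover counting error only. A share also depends on peak width and on how many peaks lie in a window. Ribosomal RNA peaks were up to 1829 bp wide and lay in a row, while Mir6236 peaks were at most 106 bp wide. A small share therefore does not place fragments outside the called peaks. The median share over other intervals was 28.9 to 42.4% per library, and the highest was 100%, so Mir6236, at rank 3 to 9 from the highest, was not alone in this.

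**Figure D3:**
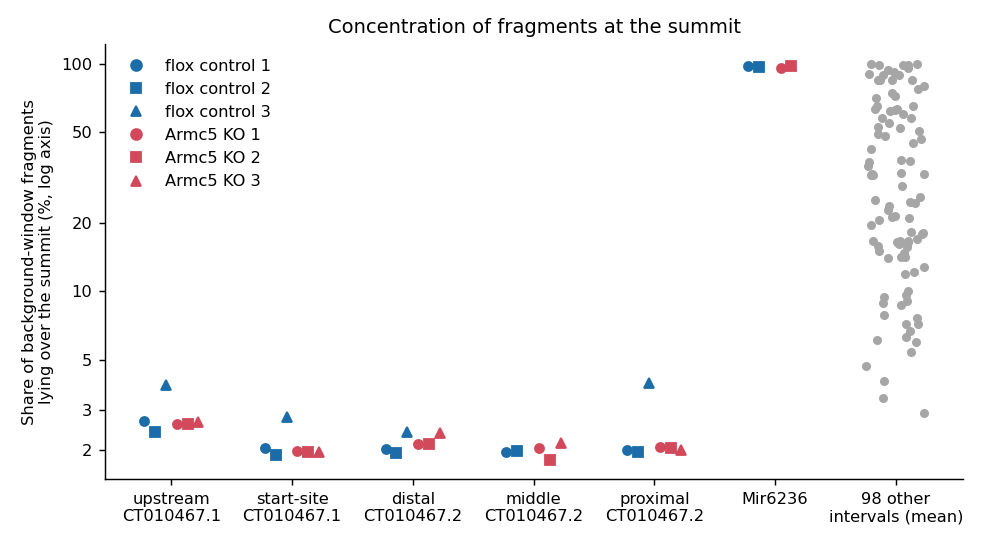
Share of the background-window fragments that lay over the summit, in % on a log axis, per library for the 6 intervals and as a mean per interval for the 98 others. Ribosomal RNA summits held 1.82 to 3.96% of their window, and Mir6236 summits 95.5 to 98.1%.

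Mir6236 was called in 4 libraries, with fold enrichments of 36.3 and 40.9 in flox controls 1 and 2 against 31.1 and 32.8 in Armc5 KO 1 and 2, and not in replicate 3 of either group. The pileups behind them were 52 and 63 fragments, and 42 and 45 fragments. Both flox values lay above both Armc5 KO values, and no test was made because the interval lacked a peak in 2 libraries. The share of all intervals with such an order in these 4 libraries was not counted. The order is therefore not read as a trait of this interval. Had every window fragment lain at the summit, the fold would have been 37.0 and 42.2 in flox controls against 32.5 and 33.5 in Armc5 KO, so the observed folds were close to the most that these window counts allow. Divided by the median pileup of each library, the groups overlapped: 0.612 and 0.700 in flox controls, 0.750 and 0.608 in Armc5 KO. By mean fold Mir6236 stood 14th of 104, between the intervals at Tmem125 (33.0) and Gm6020 (38.8).

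The Mir6236 summit lay inside the gene and upstream of the mature microRNA in all 4 libraries. It was 20 and 25 bp after the first base of the gene in flox controls and 11 and 12 bp after it in Armc5 KO, and 41 to 55 bp before the mature form. Peaks were 106 and 86 bp wide in flox controls against 106 and 101 bp in Armc5 KO. They reached 3 bases into the mature form, printed above, in 3 libraries and ended on the base before it in Armc5 KO 2. All 4 were narrower than the narrowest peak of flox control 3 (112 bp), and the part this played in the missing call was not tested. The narrowest peak of Armc5 KO 3, the other library without a call, was 88 bp.

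The upstream ribosomal RNA interval and Mir6236 had similar p-values with very different folds. At the upstream interval −log10 p was 87.6, 90.9 and 96.7 in flox controls against 65.5, 81.8 and 60.5 in Armc5 KO, on pileups of 313 to 536 fragments. At Mir6236 it was 70.8 to 105.2 on pileups of 42 to 63. Their ranks by p-value within a library were 22 to 27 and 22 to 26 from the highest. At the start-site, distal, middle and proximal intervals the highest peak had a −log10 p of 24.1 to 89.4. All Armc5 KO values lay below all flox values at the upstream and start-site intervals, 2 of the 4 called in every library, against 7 of 55 (12.7%) over the table. A −log10 p rises with depth at a given fold, and the median pileups above differed as well; the part of depth in this order was not tested.

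Fold enrichment at the upstream interval was 3.07, 2.77 and 3.53 in flox controls 1, 2 and 3, and 2.96, 2.97 and 2.97 in Armc5 KO 1, 2 and 3. The Armc5 KO values lay inside the flox range. Group means were 3.13 ± 0.385 and 2.97 ± 0.00813 (SD, n = 3 each). The change on the log2(fold + 1) scale, which understates that of low folds, was -0.053 (SE 0.08, 95% interval -0.24 to 0.13; limma, adjusted p = 0.949 over 55 intervals). Without flox control 3, whose summit lay elsewhere, it was 0.018.

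At the start-site interval the highest peak had a fold enrichment of 2.35, 2.19 and 2.56 in flox controls against 2.25, 2.23 and 2.21 in Armc5 KO. The groups overlapped, with flox control 2 below and the other flox controls above all Armc5 KO values. Means were 2.37 ± 0.189 and 2.23 ± 0.0230 (SD, n = 3 each), a log2 difference of -0.058 (SE 0.05, 95% interval -0.18 to 0.07; limma, adjusted p = 0.949). The other 2 peaks of flox control 3 here had folds of 2.47 and 1.93.

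The distal interval, inside Rn18s-rs5, was the one of the 6 with a higher mean fold in Armc5 KO and no overlap between the groups in all 6 libraries, which 4 of the 55 intervals called throughout showed in either direction (7.27%) and 1, the distal interval itself, in this direction (1.82%). Its folds were 2.31, 2.24 and 2.199 in flox controls against 2.43, 2.42 and 2.65 in Armc5 KO, means of 2.25 ± 0.0587 and 2.498 ± 0.134 (SD, n = 3 each). On the log2 scale Armc5 KO was higher by 0.11 (SE 0.05, 95% interval -0.01 to 0.22; limma, unadjusted p = 0.0709, adjusted p = 0.949) and did not pass. Its unadjusted p ranked 3rd of the 55 intervals tested. Without flox control 3 the adjusted p was 0.337 over the same 55 intervals and 0.345 over the 68 called in the other 5 libraries (limma). Divided by library median pileup, its pileup was 3.86, 4.81 and 4.24 in flox controls against 5.02, 4.72 and 4.98 in Armc5 KO, which overlapped. As a share of the window it was 2.02, 1.95 and 2.40% against 2.13, 2.12 and 2.37%, which overlapped as well. The share scales with the step of a library, which was larger in flox control 3 (0.0109 against 0.00868 to 0.00889). Pileup over background, which does not involve the step, was 2.32, 2.25 and 2.21 against 2.44, 2.43 and 2.67. These did not overlap, as for fold, which is computed from the same pileup and background.

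At the middle interval folds were 2.26 and 2.26 in flox controls 1 and 2 against 2.32, 2.07 and 2.41 in Armc5 KO. The flox values lay between those of Armc5 KO, with means of 2.26 ± 0.00472 (SD, n = 2) and 2.27 ± 0.177 (SD, n = 3). With 1 flox control lacking a peak, it was tested only over the other 5 libraries, where the log2 difference was 0.0022 (SE 0.05, 95% interval -0.10 to 0.11; limma, adjusted p = 0.997 over 68 intervals).

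The proximal interval had folds of 2.29, 2.26 and 3.62 in flox controls against 2.36, 2.33 and 2.25 in Armc5 KO. Flox control 3 was far above the other 5 libraries, which lay within 2.25 to 2.36 with both groups mixed. Means were 2.72 ± 0.774 and 2.31 ± 0.0587 (SD, n = 3 each). Armc5 KO minus flox control was -0.15 on the log2 scale (SE 0.13, 95% interval -0.45 to 0.15; limma, adjusted p = 0.949). Without flox control 3 it was 0.016.

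**Figure D4:**
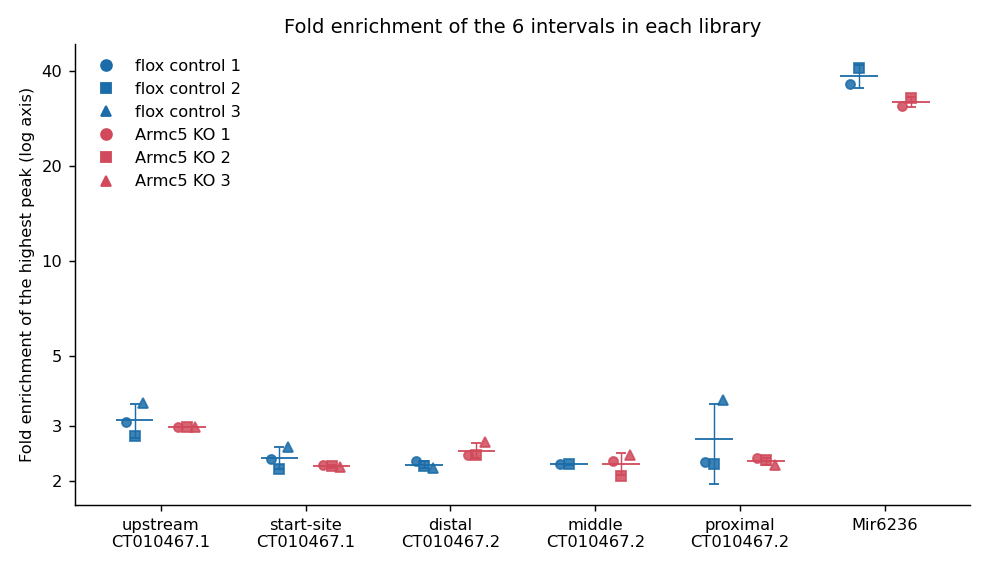
Fold enrichment of the highest peak per library on a log axis, with the mean (line) and SD (bar) of each group; n = 3 except the middle interval and Mir6236, which have 2 flox controls, and Mir6236, which has 2 Armc5 KO libraries. The ribosomal RNA intervals lie between 2.07 and 3.62 and Mir6236 between 31.1 and 40.9.

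Of the 4 ribosomal RNA intervals tested, 0 passed the adjusted threshold of 0.05 with limma, as did 0 of all 55 (0%), and at an unadjusted p under 0.05 the numbers were 0 of 4 and 1 of 55 (1.82%). The groups did not overlap in 1 of the 4, and in 4 of all 55 (7.27%) in either direction. With all Armc5 KO values higher it was that same distal interval, the only 1 of 55 (1.82%), and with all of them lower it was 0 of the 4 and 3 of 55 (5.45%). The mean was higher in Armc5 KO for 1 of the 4 and for 18 of 55 (32.7%). Median log2 differences were -0.056 over the 4 and -0.053 over the 55. The 95% intervals reached 0.117 to 0.302 to either side of the difference for the 4, against a median of 0.44 for the 55. A missed threshold does not show that the groups are alike.

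**Figure D5:**
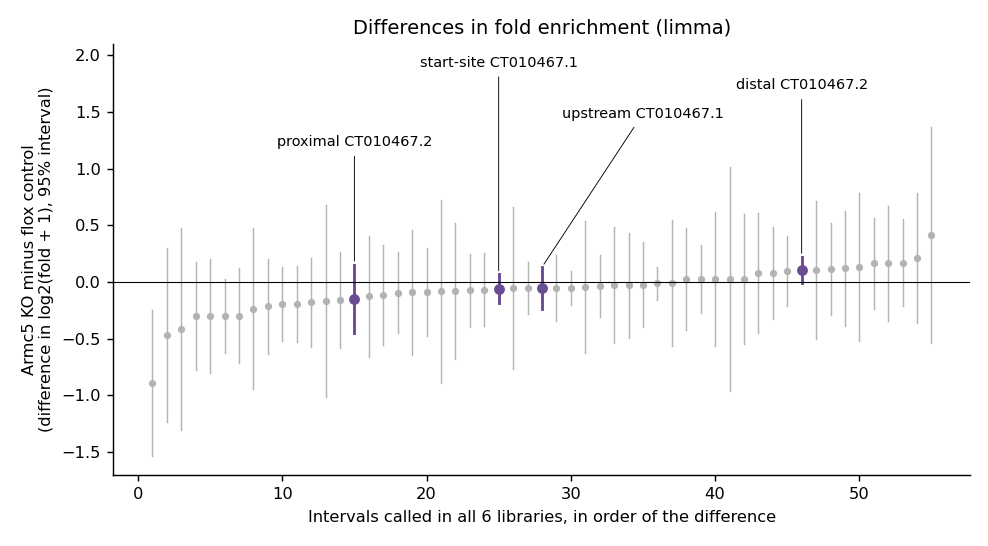
Difference in log2(fold + 1), Armc5 KO minus flox control, with its 95% interval from limma for the 55 intervals called in all 6 libraries, in order of the difference. The 4 ribosomal RNA intervals (purple) lie between -0.15 and 0.11, and each of their intervals includes 0.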

How the data were processed

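ATAC-seq of epididymal white adipose tissue was used in 6 libraries, 3 per group. The submitters' processing notes name MACS2 2.2.7.1, Bowtie2 2.3.5.1, cutadapt 4.0, deepTools 3.5.1 and the build mm10, without their roles. Shifting of insertion sites, and the handling of duplicates, multiply aligned reads or excluded regions, which bears on repeated genes, are not given in the sources used here. Per the file headers, the authors' table lists for every library's peaks a fold (a ratio over background), the −log10 p-value and q-value, start, end and summit. Its WT columns were taken to be the flox controls. Starts were taken as counted from 0 and are printed from 1.

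Pileup and background were solved from fold = (pileup + 1)/(background + 1) and a Poisson tail within 0.005 of the −log10 p, which 518 of 519 peaks met. Where a library had several peaks, the highest fold was used. Limma 3.58.1 (R 4.3.3, moderated test with a trend, log2(fold + 1), mean fold above 1, Benjamini-Hochberg) was fitted over all 55 intervals called in every library. A count test was not used, as the table holds no counts per interval. Single values per library were compared by exact two-sided permutation (scipy 1.17.1). Scripts were tested on simulated data. Window counts, their ratios, the 5-library fit and the averaging of Armc5 KO 1 and 2 were chosen after the values were seen.

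The intervals described, the gene lists and the tests were chosen with earlier results of these data known. All intervals of the 3 names are described, and other names come from the listed loci and from neighbours in position, fold or background. Equal replicate numbers were not taken as pairs. Armc5 KO 1 and 2, whose pileups differed by no more than counting error gives (0.881, chi-square over degrees of freedom), were kept as separate samples. Armc5 KO 1 and 3 (1.04) and flox control 1 and Armc5 KO 1 (1.12) were nearly as close.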

Additional observations from a re-analysis of the deposited data

How the results depend on the processing

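Other pseudocounts, no low-value filter, mean folds, pileup over background, centred folds or pileups, and, chosen after the values were seen, Armc5 KO 1 and 2 averaged kept the direction of the 4 tested ribosomal RNA intervals, and none of them passed in any setting (smallest adjusted p 0.337 with limma). Their sizes moved by over 1.5 times in some settings. With a pseudocount of 5 the upstream, start-site, distal and proximal differences were -0.027, -0.027, 0.048 and -0.074. With centred folds they were -0.092, -0.098, 0.066 and -0.19, and with centred pileups -0.027, -0.042, 0.19 and -0.18. With mean folds the start-site difference was -0.024. The low-value filter removed no interval. Over all 55 intervals the median log2 difference moved from -0.05 to 0.07 with centred pileup, a shift of over 0.1. Leaving out each library, the upstream difference ranged from -0.12 to 0.02, the start-site difference from -0.10 to -0.02, the distal from 0.07 to 0.12 and the proximal from -0.23 to 0.02. The upstream (0.018) and proximal (0.016) differences turned positive without flox control 3, also when intervals called in the other 5 libraries were fitted. The count of changed intervals ranged from 0 to 1, and the difference in intervals called from -0.333 (without flox control 3) to 0.667, and in peaks from -0.5 to 0. With the replicate number as a block 1 interval changed, Gm10719, none of the 6. The correlation of deviations within a number was 0.0258, 0.605 and 0.276. Only peaks of at least 112 bp, or a −log10 q of at least 5, kept the direction of both counts. The lowest pileup called was 5 to 7 fragments per library.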
